A study of Homo sapiens with 8 samples.

Results

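A set of 10 amino acid transporter genes was followed through RNA-seq libraries of MM cell lines. They were SLC6A9, SLC7A5, SLC3A2, SLC1A5, SLC1A4, SLC7A1, SLC38A1, SLC38A2, SLC43A1 and SLC36A4, 10 of the 63677 genes in the deposited count tables. The genes were listed by symbol, selected on their log2 fold changes in JJN3, where SLC6A9 was among the genes with the largest difference between THZ1 and DMSO, and each symbol matched 1 Ensembl gene. All 10 passed the filter on low counts in every comparison made here. The values of these genes in the JJN3 comparison of THZ1 with DMSO took part in the choice, so they are given below as a description, without a p-value.

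The study treated the MM cell lines JJN3 and H929 with THZ1 at 50 nM or with the vehicle DMSO for 24 h, and there were 2 libraries for each of JJN3 DMSO, JJN3 THZ1, H929 DMSO and H929 THZ1. THZ1 is a covalent inhibitor of CDK7, the kinase of the general transcription factor TFIIH that phosphorylates RNA polymerase II. The libraries held between 17476443 and 19194371 counts on genes, and the labels do not say whether the 2 libraries of a group came from separate cultures, so p-values measure only the spread between these libraries. Both lines are established human lines of malignant plasma cells, and each is a single line, so a difference between them is a difference between 2 lines.

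Amino acid transporters carry amino acids across the plasma membrane or the membranes of organelles. Some couple uptake to sodium, chloride or protons and can build up a gradient, while exchangers trade an amino acid inside the cell for one outside, so that the first kind supplies what the second kind spends. Plasma cells make and secrete large amounts of immunoglobulin and have a high demand for amino acids, and the leucine and glutamine that enter through these proteins also feed the lysosomal signalling that activates mTORC1.

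The libraries were checked against cell type markers before the transporters were compared. Of 10 plasma cell markers, 9 were above 1 CPM in all 8 libraries. The exception was SLAMF7, a surface antigen of plasma cells. Its counts were 2 and 174 under the H929 DMSO label and 8948 and 9173 under the H929 THZ1 label. The summed level of the 10 was 4527 to 4925 CPM in JJN3. It was 3651 and 3869 CPM in the libraries labelled H929 DMSO and 12530 and 12500 CPM in those labelled H929 THZ1. The sum hides moves of single markers. In JJN3 the counts of SDC1, TNFRSF17, IRF4, XBP1, SLAMF7, MZB1 and POU2AF1 were lower with THZ1. Those of PRDM1 and IGJ were higher, and those of CD38 overlapped. Between the H929 labels CD38 and MZB1 had lower counts with THZ1, and the other markers had higher counts. Of 4 markers each of earlier B cells, T cells, myeloid cells and red cells, 0 exceeded 1 CPM in all 8 libraries, but some moved with the labels. The T cell sum was 34.0 and 34.7 CPM under the H929 THZ1 label and 1.74 to 4.71 CPM elsewhere, nearly all from CD3E (640 and 650 counts), with CD3D at 0. The myeloid sum was 5.89 and 5.92 CPM under that label, mostly from CD33 (106 and 104 counts), and at most 1.78 CPM elsewhere. MS4A1 of earlier B cells had 48 and 72 counts in JJN3 DMSO and 28 and 16 in JJN3 THZ1. The part of these differences in the results was not tested. The libraries labelled H929 DMSO and H929 THZ1 also differed in light chain genes, which can mark one clone from another, and in epithelial genes. IGLC3, a constant region gene of the lambda light chain, was counted 24879 and 22803 times under the H929 DMSO label, 3 and 2 times under the H929 THZ1 label, and at most 1 time per JJN3 library. The epithelial adhesion gene EPCAM had 2391 and 2249 counts against 1 and 6, and between 1195 and 1373 in JJN3. For these libraries treatment and the other differences cannot be told apart, and H929 values below refer to the label only.

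The gene starts were examined for a pair of sequence motifs, since several of the genes are textbook targets of ATF4, the transcription factor of the amino acid response, or of MYC. RefSeq start windows (250 bases before to 50 after a start, from the GRCh38.p14 table) existed for all 10 genes, 18 windows in all because some genes have several starts, and every window matched GRCh37 at exactly 1 place. The core TGATGNAA, bound by ATF4 with its C/EBP partners, was searched on both strands and lay in 5 of 18 windows (27.8%), against 3.62% of 35116 windows in the table. The E-box CACGTG, bound by MYC and related proteins, lay in 3 of 18 windows (16.7%), against 7.26% of all windows. No TGATGNAA match shared bases with a CACGTG match. The sites are printed in the direction of the gene with the motif in capitals. SLC7A5, SLC1A5, SLC1A4, SLC7A1 and SLC43A1 had log2 fold changes below -0.5 with THZ1 in JJN3. SLC38A1 and SLC3A2 were inside the limit of 0.5 there. Any link between the motifs and these differences was not tested.
SLC1A5, TGATGNAA, bases -97 to -90 from the start, chr19:47288151-47288178, minus strand: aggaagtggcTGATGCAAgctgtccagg
SLC1A4, TGATGNAA on the opposite strand, bases -7 to 1, chr2:65216516-65216543, plus strand: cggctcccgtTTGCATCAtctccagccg
SLC7A1, TGATGNAA, bases 8 to 15, chr13:30169801-30169828, minus strand: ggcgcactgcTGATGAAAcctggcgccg
SLC38A1, TGATGNAA, bases -4 to 4, chr12:46660286-46660313, minus strand: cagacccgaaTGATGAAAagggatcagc
SLC3A2, TGATGNAA on the opposite strand, bases 38 to 45, chr11:62649198-62649220, plus strand: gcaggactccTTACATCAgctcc
SLC7A5, CACGTG, bases -130 to -125, chr16:87903228-87903253, minus strand: ccggacgacgCACGTGctccgagctg
SLC1A5, CACGTG, bases -50 to -45 of another start, chr19:47290585-47290610, minus strand: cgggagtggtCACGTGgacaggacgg
SLC43A1, CACGTG, bases -112 to -107, chr11:57283272-57283297, minus strand: gcgggcgagtCACGTGcgcgtgaaac
Positions count the first transcribed base as 1, with no base 0, and coordinates are on GRCh37. In the 250 bases before the start alone, TGATGNAA was left in 1 of 18 windows, that of SLC1A5, against 3.14% of all windows, since the other 4 sites lay at or after the start. For SLC1A5, SLC1A4, SLC38A1 and SLC3A2 the start whose window holds TGATGNAA lies inside the annotated span of the gene. For SLC7A1 it lies at the outer end. Neither motif was found in the single window of SLC6A9 or in those of SLC38A2 and SLC36A4, which says only that these letters are not in these windows.

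The stretches before the starts of SLC7A5 and SLC1A5, the most abundant transporters of the set, are shown whole for their context. SLC1A5 has 3 starts in the table, and the stretch shown was picked because it holds TGATGNAA. It lies within the annotated span of the gene, and the window at the outer end of the gene holds neither motif. The first is chr16:87903114-87903363 and the second chr19:47288072-47288321, both on the minus strand of GRCh37, with the motif in capitals.
SLC7A5: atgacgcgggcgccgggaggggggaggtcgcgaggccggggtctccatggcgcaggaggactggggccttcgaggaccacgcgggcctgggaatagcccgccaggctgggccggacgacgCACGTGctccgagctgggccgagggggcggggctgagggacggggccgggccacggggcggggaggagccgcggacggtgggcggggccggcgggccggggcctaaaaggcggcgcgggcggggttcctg
SLC1A5: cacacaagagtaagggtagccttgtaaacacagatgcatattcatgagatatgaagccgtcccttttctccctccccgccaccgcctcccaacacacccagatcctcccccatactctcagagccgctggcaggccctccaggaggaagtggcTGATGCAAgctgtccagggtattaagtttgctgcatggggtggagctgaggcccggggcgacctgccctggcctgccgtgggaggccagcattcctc

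Transcript levels were compared between genes per length, as RPKM: counts scaled by exon length and by library size after TMM scaling over the 8 libraries. SLC1A5 and SLC7A5 were the most abundant of the 10 in all 4 groups, with SLC1A5 first in JJN3 and SLC7A5 first in the libraries labelled H929. SLC38A1 came next in all 4 groups, an order that depends on the length used. SLC6A9 and SLC36A4 were the least abundant in all 4 groups. With DMSO in JJN3 the mean level ran from 115 RPKM for SLC1A5 to 2.84 RPKM for SLC36A4, and the values of the 2 libraries overlapped between neighbours in this order only for SLC43A1 and SLC3A2. With THZ1 in JJN3 the values of SLC7A1, SLC1A4 and SLC3A2 overlapped with their neighbours, at means of 15.5, 15.1 and 14.7 RPKM. Lengths come from the union of annotated exons. With the longest transcript as length in its place, SLC3A2 stood above SLC38A1 in JJN3 DMSO (42.5 against 39.6 RPKM), H929 DMSO (99.8 against 82.0 RPKM) and H929 THZ1 (81.2 against 53.6 RPKM). In JJN3 THZ1 that length put SLC38A1 at 38.2 RPKM and SLC7A5 at 37.03 RPKM, with overlapping libraries. SLC6A9 and SLC36A4 stayed lowest with either length.

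**Figure D1:**
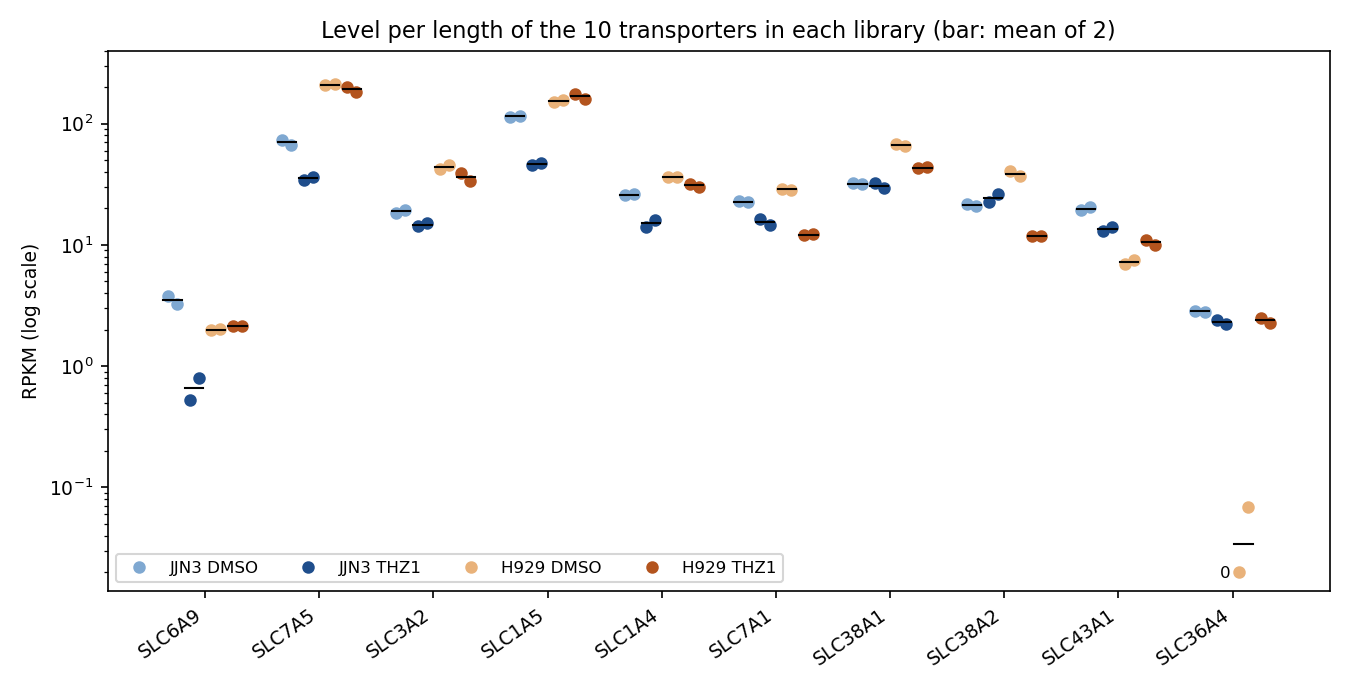
RPKM on a log scale of the 10 transporters in each of the 8 libraries, coloured by group, with a black bar at the mean of 2 libraries and a value of 0 drawn at 0.02 and marked 0. SLC1A5 and SLC7A5 lie highest and SLC6A9 and SLC36A4 lowest, and the first library labelled H929 DMSO had no count on SLC36A4.

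In JJN3, comparing THZ1 with DMSO, the level of SLC6A9 was 5.22-fold lower with THZ1, those of SLC1A5 and SLC7A5 were 2.44-fold and 1.96-fold lower, and those of SLC38A1 and SLC38A2 were at log2 fold changes of -0.04 and 0.20. A gene was called at a Benjamini-Hochberg adjusted p under 0.05 in edgeR's quasi-likelihood test and a log2 fold change beyond 0.5. Of the 13984 genes tested, 21.3% were called lower and 20.6% higher. SLC6A9, SLC7A5, SLC1A5, SLC1A4, SLC7A1 and SLC43A1, 6 of the 10, had log2 fold changes below -0.5, and none was above 0.5. Because this comparison entered the choice of genes, these counts are a description and nothing is read from them. The median log2 fold change was -0.54 over the 10 genes and -0.0004 over all genes tested. Counts were scaled within this comparison, so the values are relative to the other genes, and in bulk RNA fewer cells and less RNA per cell cannot be told apart.

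In the libraries labelled H929, 3 of the 10 genes were lower with the THZ1 label (SLC7A1, SLC38A1 and SLC38A2) and 2 were higher (SLC43A1 and SLC36A4). Of the 14863 genes tested there, 32.6% were called lower and 33.1% higher, so the share of transporters called was near or below that of all genes. The median log2 fold change was -0.18 over the 10 genes and 0.01 over all genes tested. The genes with the largest differences in JJN3, SLC6A9, SLC1A5 and SLC7A5, were at log2 fold changes of 0.11, 0.13 and -0.13 between these labels. Whether the difference between DMSO and THZ1 itself differed between JJN3 and the H929 labels was not tested.

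**Figure D2:**
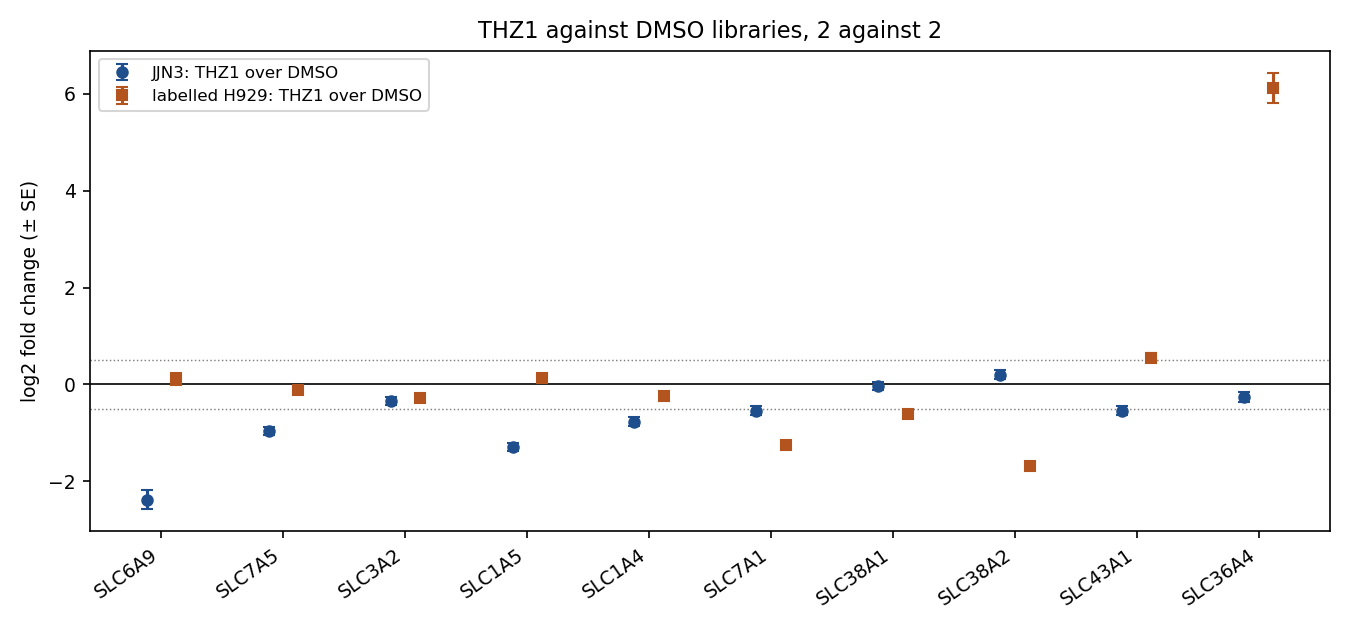
Log2 fold change of each transporter between THZ1 and DMSO libraries, with its standard error, in JJN3 (circles) and in the libraries labelled H929 (squares), 2 libraries against 2, with dotted lines at 0.5 and -0.5. SLC6A9 lies lowest for JJN3 at -2.38, SLC38A2 lowest for the H929 labels at -1.70, and SLC36A4 lies at 6.12 for the H929 labels.

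SLC6A9 encodes GlyT1, which imports glycine together with sodium and chloride. The gene (ENSG00000196517) lies on chromosome 1 of GRCh37, bases 44457172 to 44497139, on the minus strand. The JJN3 DMSO libraries held 382 and 333 of its counts (3.77 and 3.25 RPKM), and the JJN3 THZ1 libraries held 45 and 75 (0.524 and 0.795 RPKM). The groups did not overlap, and the log2 fold change was -2.38 (SE 0.19), at the 0.193 percentile of all genes tested. The libraries labelled H929 were level with each other, with 194 and 190 counts for DMSO and 214 and 213 for THZ1, or 1.99, 2.01, 2.14 and 2.14 RPKM. Between these labels the log2 fold change was 0.11 (SE 0.12), and it did not pass edgeR's test (adjusted p = 0.423). Both JJN3 DMSO libraries lay above every other library and both JJN3 THZ1 libraries below, so the order was JJN3 DMSO, H929 THZ1, H929 DMSO and JJN3 THZ1, without overlap between neighbours. The 2 middle groups differed by 1.07-fold. The JJN3 DMSO libraries lay 1.76-fold above the libraries labelled H929 DMSO (log2 0.82, SE 0.12).

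Exons of SLC6A9 overlap those of CCDC24, a gene on the opposite strand, over 413 bases. Whether counting used strand is not given in the sources used here, and reads from both genes cannot be told apart where they overlap. Counts of CCDC24 were 11 to 19 in JJN3, 18 and 25 under the H929 DMSO label, and 203 and 175 under the H929 THZ1 label, so it moved with the H929 labels and stayed low in JJN3.

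SLC7A5 and SLC3A2 encode the subunits of LAT1, the exchanger that brings in leucine and other large neutral amino acids. SLC7A5 is the light chain that transports, and SLC3A2, also known as CD98 or 4F2hc, is the heavy chain that carries it to the membrane and serves other light chains as well. SLC7A5 (ENSG00000103257) lies on chromosome 16, bases 87863629 to 87903113, on the minus strand, and SLC3A2 (ENSG00000168003) on chromosome 11, bases 62623476 to 62656352, on the plus strand. SLC7A5 stood at 72.9 and 67.3 RPKM in JJN3 with DMSO and at 34.2 and 36.6 RPKM with THZ1. In the libraries labelled H929 it stood at 207 and 214 RPKM with DMSO and at 200.2 and 184 RPKM with THZ1. SLC7A5 was thus lower with THZ1 in JJN3, with no overlap (log2 fold change -0.97, SE 0.086), and differed little between the H929 labels (-0.13, SE 0.060, adjusted p = 0.0634 in edgeR).

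SLC3A2 differed less than its partner in JJN3. It stood at 18.3 and 19.5 RPKM with DMSO and at 14.4 and 15.04 RPKM with THZ1, a log2 fold change of -0.35 (SE 0.080) with no overlap between the groups. Under the H929 labels it stood at 42.7 and 46.0 RPKM with DMSO and 38.9 and 33.4 RPKM with THZ1, a log2 fold change of -0.29 (SE 0.066) that passed edgeR's test (adjusted p = 0.000801) but not the limit of 0.5. The ratio of SLC7A5 to SLC3A2, both per length, was therefore lower with THZ1 in JJN3, at 2.38 and 2.43 against 3.98 and 3.46 with DMSO. In the libraries labelled H929 the ratio was 4.84 and 4.65 with DMSO and 5.15 and 5.51 with THZ1. The ratio separated DMSO from THZ1 without overlap in JJN3 and between the H929 labels, in opposite directions, and neither difference was tested. With the longest transcript as length the JJN3 ratios were 1.85 and 1.61 with DMSO and 1.11 and 1.13 with THZ1, and their means under the H929 labels were 2.21 with DMSO and 2.48 with THZ1, with the same directions and no overlap. For both genes the order of the groups was H929 DMSO, H929 THZ1, JJN3 DMSO and JJN3 THZ1.

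SLC1A5 and SLC1A4 encode ASCT2 and ASCT1, sodium-dependent exchangers of neutral amino acids. ASCT2 is a main route of glutamine into dividing cells, and ASCT1 carries alanine, serine, cysteine and threonine. SLC1A5 (ENSG00000105281) lies on chromosome 19, bases 47278140 to 47291851, on the minus strand, and SLC1A4 (ENSG00000115902) on chromosome 2, bases 65215611 to 65250999, on the plus strand. SLC1A5 stood at 113 and 116 RPKM in JJN3 with DMSO and at 45.4 and 47.7 RPKM with THZ1 (log2 fold change -1.29, SE 0.083). Its level was higher and close to even in the libraries labelled H929, at 149.7 and 158 RPKM with DMSO and 176 and 160.0 RPKM with THZ1, where the log2 fold change of 0.13 (SE 0.059) had an adjusted p of 0.049 in edgeR and stayed inside the limit of 0.5.

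SLC1A4 followed SLC1A5 in JJN3 at a smaller size. It stood at 25.9 and 26.2 RPKM with DMSO and at 14.1 and 16.1 RPKM with THZ1, a log2 fold change of -0.77 (SE 0.087). Under the H929 labels it stood at 36.3 and 36.6 RPKM with DMSO and 31.7 and 30.1 RPKM with THZ1, a log2 fold change of -0.23 (SE 0.052, edgeR adjusted p = 0.000651) inside the limit of 0.5. In JJN3 the ratio of SLC1A5 to SLC1A4 was 4.37 and 4.44 with DMSO and 3.21 and 2.96 with THZ1. For the H929 labels it was 4.13 and 4.31 with DMSO and 5.55 and 5.31 with THZ1. As with the LAT1 subunits, the more abundant gene lost share to its partner in JJN3 and gained share between the H929 labels. The ratios did not overlap in either comparison, and whether the comparisons differ was not tested.

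SLC7A1 encodes CAT1, the widely expressed importer of arginine, lysine and ornithine. It (ENSG00000139514) lies on chromosome 13, bases 30083551 to 30169825, on the minus strand. JJN3 libraries had 22.9 and 22.6 RPKM with DMSO and 16.4 and 14.5 RPKM with THZ1, a log2 fold change of -0.54 (SE 0.085), which was -0.45 without the second JJN3 THZ1 library. The H929 labels gave 29.0 and 28.5 RPKM with DMSO and 12.0 and 12.2 RPKM with THZ1, a log2 fold change of -1.24 (SE 0.052, edgeR adjusted p = 3.2e-12). In JJN3 and between the H929 labels the THZ1 libraries lay below the DMSO libraries without overlap. The lowest level was in the libraries labelled H929 THZ1.

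SLC38A1 and SLC38A2 encode SNAT1 and SNAT2, sodium-coupled importers of glutamine, alanine and other small neutral amino acids, of which SNAT2 is known to be induced when amino acids run short. The genes are neighbours on the minus strand of chromosome 12, SLC38A1 (ENSG00000111371) at bases 46576846 to 46663800 and SLC38A2 (ENSG00000134294) at bases 46751971 to 46766556. SLC38A1 stood at 32.2 and 31.9 RPKM in JJN3 with DMSO and at 32.2 and 29.6 RPKM with THZ1, and these groups overlapped (log2 fold change -0.04, SE 0.084). Without the second JJN3 THZ1 library the value was 0.025, on the other side of 0. SLC38A2 stood at 21.8 and 21.1 RPKM with DMSO and at 22.5 and 26.3 RPKM with THZ1 (log2 fold change 0.20, SE 0.091).

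Both SNAT genes were lower with the THZ1 label in the H929 libraries. SLC38A1 stood at 67.4 and 65.2 RPKM with DMSO and at 42.8 and 43.9 RPKM with THZ1 (log2 fold change -0.61, SE 0.054, edgeR adjusted p = 3.18e-08). SLC38A2 stood at 40.5 and 36.9 RPKM with DMSO and at 12.0 and 11.9 RPKM with THZ1, the largest difference of the set between the H929 labels in the lower direction (log2 fold change -1.70, SE 0.059, edgeR adjusted p = 3.17e-13). The ratio of SLC38A1 to SLC38A2 was 1.67 and 1.77 in the libraries labelled H929 DMSO and 3.58 and 3.70 in those labelled H929 THZ1. In JJN3 it was 1.47 and 1.51 with DMSO and 1.43 and 1.13 with THZ1. This ratio did not overlap between DMSO and THZ1 in JJN3 or between the H929 labels. It was lower with THZ1 in JJN3 and higher with the H929 THZ1 label, where the difference was larger. Neither difference was tested.

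SLC43A1 encodes LAT3, a facilitated carrier of leucine and other large neutral amino acids that needs no heavy chain. It (ENSG00000149150) lies on chromosome 11, bases 57252007 to 57283253, on the minus strand. JJN3 libraries had 19.3 and 20.4 RPKM with DMSO and 13.0 and 14.0 RPKM with THZ1 (log2 fold change -0.54, SE 0.085), and -0.49 was obtained without the first JJN3 THZ1 library. The libraries labelled H929 had 6.96 and 7.45 RPKM with DMSO and 11.1 and 10.0 RPKM with THZ1 (log2 fold change 0.55, SE 0.085, edgeR adjusted p = 1.89e-05). That call rested on the limit of 0.5, since the value was 0.50 without the first library labelled H929 DMSO and 0.49 without the first labelled H929 THZ1. SLC43A1 was higher in JJN3 than in the libraries labelled H929 under either treatment, against the direction of the LAT1 genes. The difference was 2.77-fold with DMSO and 1.26-fold with THZ1, where it stayed inside the limit (log2 fold change 0.33).

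SLC36A4 encodes PAT4, a carrier of proline and tryptophan from the family of proton-assisted transporters, some of which act at the lysosome. It (ENSG00000180773) lies on chromosome 11, bases 92877340 to 92931157, on the minus strand. In JJN3 it was counted 538 and 532 times under DMSO (2.87 and 2.81 RPKM), then 383 and 392 times under THZ1 (2.41 and 2.25 RPKM) (log2 fold change -0.27, SE 0.10). The H929 DMSO label gave 0 and 12 counts and the H929 THZ1 label 463 and 418, and the last 2 lay at 2.51 and 2.27 RPKM, overlapping JJN3 with THZ1. The fitted log2 fold change between the H929 labels was 6.12 (SE 0.32, edgeR adjusted p = 4.2e-11), and 5.11 without the first library labelled H929 DMSO. Set against the first library alone, with its 0 counts taken as a floor of 3 counts, the level in the libraries labelled H929 THZ1 was at least 144-fold higher, where floors and counts cover counting error only.

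The second library labelled H929 DMSO held small counts of several genes at 0 or near 0 in the first. SLC36A4 stood there at 2.87% of its mean CPM in the libraries labelled H929 THZ1, and SLAMF7 at 2.02%. The glycine decarboxylase gene GLDC stood at 2.11% (0 and 68 counts against 3456 and 3332). SESN3, an inhibitor of mTORC1 signalling, stood at 2.02% (0 and 6 counts against 295 and 330). In the first library the shares were 0% for SLC36A4, GLDC and SESN3 and 0.0225% for SLAMF7. These genes were chosen after their values were seen, and what gives the shares was not tested.

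Between the vehicle libraries, JJN3 DMSO lay below the libraries labelled H929 DMSO for 4 of the 10 genes (SLC7A5, SLC3A2, SLC38A1 and SLC38A2) and above them for 3 (SLC6A9, SLC43A1 and SLC36A4). Of all 14590 genes tested in this comparison, 33.0% were called lower and 32.6% higher. SLC7A5 had the largest difference in the lower direction, 2.99-fold (log2 -1.58, SE 0.059), followed by SLC3A2 at 2.34-fold. SLC38A1 was 2.06-fold lower and SLC38A2 1.80-fold lower. SLC43A1 was 2.77-fold higher in JJN3 (log2 1.47, SE 0.075). SLC1A5, SLC1A4 and SLC7A1 were lower in JJN3 at log2 fold changes of -0.42, -0.48 and -0.33, inside the limit of 0.5. SLC36A4 was at least 171-fold higher in JJN3 than the floor of the first library labelled H929 DMSO, which had 0 counts. That bound does not hold for the second, with 12 counts (0.665 CPM, against a mean of 27.55 CPM in JJN3 DMSO). The fitted log2 fold change of SLC36A4 over both libraries was 6.37 (SE 0.31). The JJN3 DMSO libraries also entered the comparison with which the genes were chosen, so these values are a description and no p-value is given.

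Between the THZ1 libraries, JJN3 lay below the libraries labelled H929 for 6 of the 10 genes and above for SLC38A2, against 34.0% and 32.5% of the 14981 genes tested. The JJN3 THZ1 libraries took part in the choice, and no p-value is given. SLC7A5 was 5.51-fold lower in JJN3, SLC1A5 3.67-fold, SLC6A9 3.28-fold, SLC3A2 2.498-fold, SLC1A4 2.08-fold and SLC38A1 1.43-fold. SLC38A2 was 2.02-fold higher. SLC36A4 overlapped between JJN3 THZ1 and H929 THZ1 (log2 fold change -0.06, SE 0.11). SLC7A1 and SLC43A1 were each 1.26-fold higher in JJN3, inside the limit. The call of SLC38A1 rested on the limit, with a log2 fold change of -0.51 that was -0.46 without the second JJN3 THZ1 library. The 4 comparisons share libraries in pairs and are not independent of each other.

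**Figure D3:**
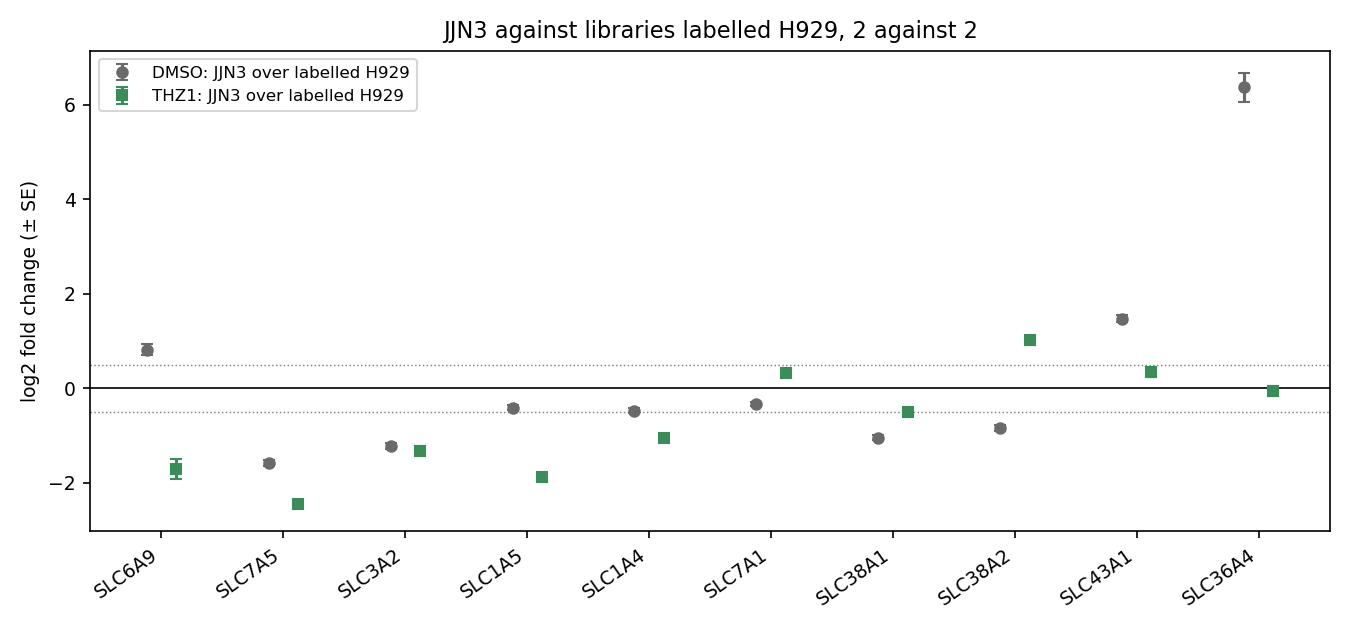
Log2 fold change of each transporter, with its standard error, between JJN3 and the libraries labelled H929 for DMSO (circles) and THZ1 (squares), 2 libraries against 2, with dotted lines at 0.5 and -0.5. SLC6A9 lies at 0.82 for DMSO and -1.71 for THZ1, and SLC7A5 lies at -1.58 and -2.46.

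Summed over the 10 genes, the level per length was 333 and 331 RPKM in JJN3 with DMSO and 195 and 203 RPKM with THZ1. In the libraries labelled H929 it was 581 and 595 RPKM with DMSO and 529 and 489.7 RPKM with THZ1. SLC1A5 and SLC7A5 were the largest parts of the sum in each group. SLC1A5 took 34.6% ± 0.82 (SD, n = 2) of it in JJN3 with DMSO and 23.4% ± 0.17 (SD, n = 2) with THZ1, while the SNAT genes took larger shares with THZ1, 15.5% against 9.63% for SLC38A1 and 12.2% against 6.46% for SLC38A2. In the libraries labelled H929 the shares moved the other way, with SLC38A2 at 6.58% with DMSO and 2.34% with THZ1 and SLC1A5 at 26.2% and 33.0%. SLC6A9 took 1.06% ± 0.11 (SD, n = 2) of the sum in JJN3 with DMSO and 0.33% ± 0.087 (SD, n = 2) with THZ1. The sum weighs genes by transcript level and says nothing of protein or of transport.

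**Figure D4:**
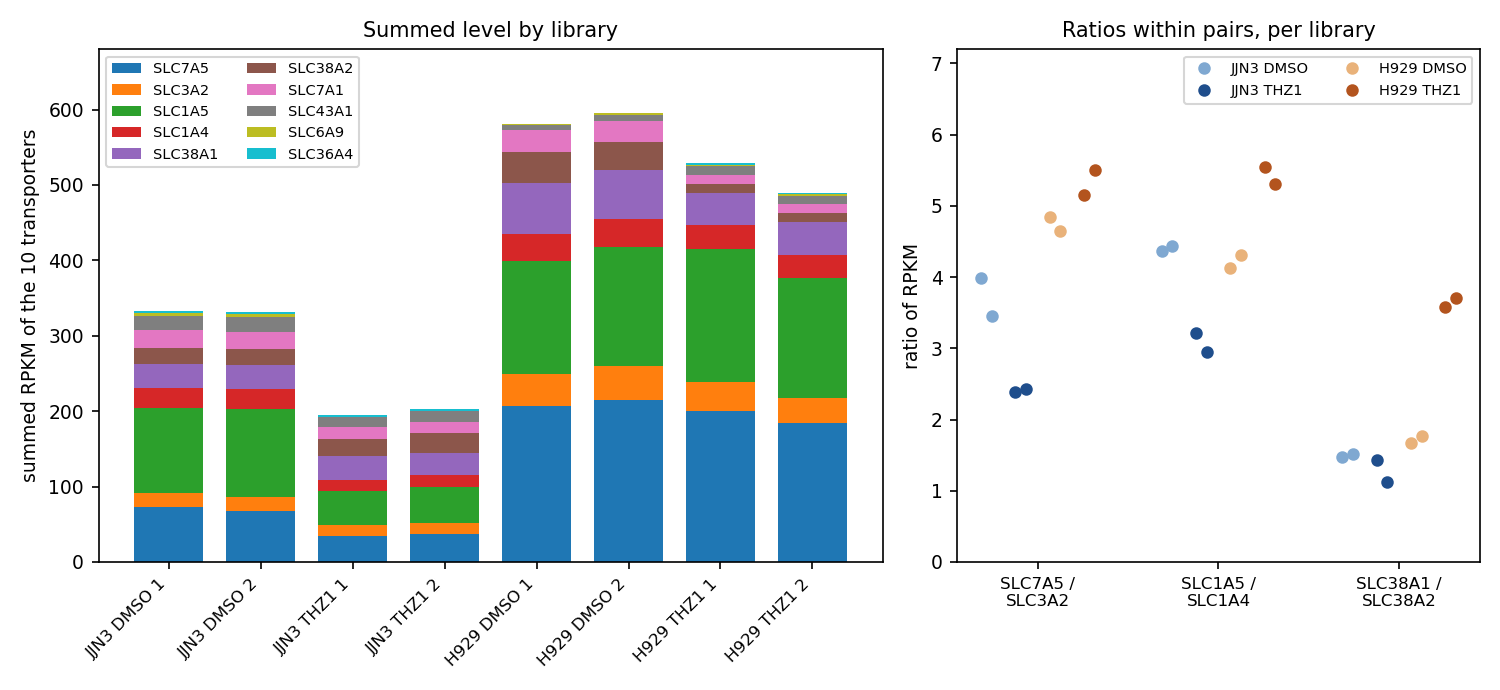
Left, the RPKM of the 10 transporters stacked for each of the 8 libraries. Right, the ratio of RPKM within 3 pairs of related genes in each library, coloured by group. The JJN3 THZ1 libraries have the shortest stacks, at 195 and 203 RPKM, and the SLC38A1 to SLC38A2 ratio is highest in the libraries labelled H929 THZ1, at 3.58 and 3.70.

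Other amino acid transporters were taken from a list of 41 genes, of which 16 passed the filter on low counts in each comparison. In JJN3, 6 were lower with THZ1 and 2 higher, against 21.3% and 20.6% of all genes, with a median log2 fold change of -0.20. SLC7A2, a cationic amino acid carrier related to SLC7A1, was lower by a log2 fold change of -1.23 (SE 0.13, edgeR adjusted p = 1.41e-05). The lysosomal proteins followed, with SLC38A9, the arginine sensor of mTORC1, at -1.02 (SE 0.10), CTNS, the cystine exporter, at -0.95 (SE 0.099), and SLC38A7, a glutamine exporter, at -0.79 (SE 0.15). Their adjusted p-values in edgeR were at most 0.00105. SLC36A1, the lysosomal relative of SLC36A4, was higher at 0.51 (SE 0.12), and its call was lost under several alternatives, with values of 0.40 to 0.49. The other gene called higher, SLC7A11, the cystine importer that pairs with SLC3A2, was at 1.34 (SE 0.16, edgeR adjusted p = 3.87e-05). It is named after its value was seen because its average level lay just under the limit for naming list genes. The remaining genes called lower, SLC1A3 at -2.56 (SE 0.46) and PQLC2 at -0.76 (SE 0.18), also lay under that limit. Their average log2 CPM was -0.071 and 2.615.

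Between the H929 labels, 8 of the 16 other transporters were lower and 3 higher, against 32.6% and 33.1% of all genes, with a median of -0.57. SLC16A10, a carrier of aromatic amino acids, was at -1.98, SLC6A6, the taurine transporter, at -1.49, SLC7A6, another partner of SLC3A2, at -1.01, and SLC38A7 at -0.84, with adjusted p-values in edgeR of at most 1.03e-06. Between the vehicle libraries 8 were lower in JJN3 and 3 higher, against 33.0% and 32.6% of all genes. SLC38A5, a relative of SLC38A1 that carries glutamine, was lower at a log2 fold change of -1.83 (SE 0.055, edgeR adjusted p = 1.44e-12). SLC7A2 was counted 583 and 506 times in the JJN3 DMSO libraries and 0 times under the H929 DMSO label. Between the THZ1 libraries 4 were lower in JJN3 and 4 higher, against 34.0% and 32.5%.

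Enzymes that make or use the cargo of SLC6A9 and the ASC transporters were grouped as serine, glycine and one-carbon enzymes. In JJN3, 7 of 16 were lower with THZ1 and 0 higher (21.3% and 20.6% of all genes), with a median log2 fold change of -0.51, where edgeR gave 1 higher at an unadjusted p under 0.05 and DESeq2 called 8 lower and 0 higher. PSAT1 and PSPH, which act in turn on the path from glycolysis to serine, were at -1.62 (SE 0.080, edgeR adjusted p = 4.81e-07) and -1.35 (SE 0.11, adjusted p = 2.6e-06). ALDH1L2 and MTHFD1, enzymes of the folate cycle, were at -0.91 and -0.61. Between the H929 labels 5 of 15 were lower and 2 higher (32.6% and 33.1% of all genes), with a median of -0.19. MTHFD1 was at -1.17, while ALDH1L2 was higher at 3.29. Of 7 genes for uses of glycine and cysteine, 5 were tested in JJN3 and 0 were called in either direction by edgeR or DESeq2, with 1 higher and 0 lower at an unadjusted p under 0.05. In the H929 libraries 1 of 6 was lower (GCLC, of glutathione synthesis, at -1.13) and 2 were higher (GSS at 0.94 and GATM at 0.75), against 32.6% and 33.1% of all genes.

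The integrated stress response is the pathway in which a shortage of amino acids, among other stresses, raises translation of ATF4. In JJN3, 9 of 20 genes of the list were lower with THZ1 and 3 higher (21.3% and 20.6% of all genes), with a median of -0.39. ATF4 itself was at -0.92 (SE 0.11, edgeR adjusted p = 3.09e-05), and the lower genes STC2, TRIB3 and ASNS, the asparagine synthetase gene, were at -1.58, -1.02 and -0.78. EIF2AK3, the kinase of the pathway in the endoplasmic reticulum, and PPP1R15A, which ends the response, were higher at 0.84 and 0.57. Under the limit on level for naming list genes, CHAC1, DDIT3 and VLDLR were called lower at -2.10, -0.64 and -1.15. ATF3, also under it, was called higher at 0.66. Between the H929 labels 5 of 20 were lower and 8 higher (32.6% and 33.1% of all genes), with a median of 0.41. EIF2AK3 was higher there at 4.25, PPP1R15A at 3.01, ATF5 at 1.94 and SESN2 at 1.71, while EIF2AK1 and TRIB3 were lower at -1.68 and -1.27.

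Genes that report amino acids to mTORC1 gave no common direction. In JJN3, 5 of 30 were lower with THZ1 and 6 higher, near the 21.3% and 20.6% of all genes, with a median of -0.02. MLST8, a subunit of mTORC1, was at -1.06, NPRL2 of the inhibitory GATOR1 complex at -0.73 and MIOS of GATOR2 at -0.68. The sestrins SESN1 and SESN3 were higher at 1.58 and 1.24, FNIP2 at 1.30 and RHEB, the activator of mTORC1, at 0.79. Between the H929 labels, where 32.6% and 33.1% of all genes were called, 10 of 30 were lower, with NPRL2 at -1.97, MIOS at -1.87, RPTOR at -1.55 and MTOR at -1.11, and 8 were higher, with SESN3 at a fitted 6.60 (0 and 6 counts against 295 and 330), FLCN at 1.78, SESN2 at 1.71 and SESN1 at 1.69. Glutamine and branched-chain amino acid use split evenly in JJN3, with 2 of 11 lower (BCAT2 at -0.84 and GPT2 at -0.69) and 2 higher (GOT1 at 0.74 and GLUD1 at 0.58), against 21.3% and 20.6% of all genes. In the H929 libraries 5 of 11 were lower, among them GOT2 at -2.36, and 5 higher, among them GLUL, the glutamine synthetase gene, at 2.29, against 32.6% and 33.1% of all genes. The fitted values of GLS2 and BCAT1, 2 of the lower genes with an average log2 CPM under 3, were -3.05 and -5.68.

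Among 8 membrane partners of transport, 3 were higher in JJN3 with THZ1 and 0 were lower by edgeR (20.6% and 21.3% of all genes). At an unadjusted p under 0.05, edgeR gave 6 higher and 0 lower. DESeq2 called 1 higher and 0 lower. BSG, which encodes the chaperone CD147 that binds CD98 and the lactate carriers, was at 0.90 (SE 0.11, edgeR adjusted p = 3.85e-05). The others were ATP1B1, a subunit of the sodium pump, at 1.51 (SE 0.41) and the lactate carrier gene SLC16A3 at 0.75 (SE 0.23). Their average log2 CPM was low, at 0.2 and 1.985, under the limit of 3 for naming list genes. Between the H929 labels 2 of 8 were lower, SLC16A3 at -1.84 and ATP1B3 at -0.77, and 1 higher, ATP1B1 at 0.74, against 32.6% and 33.1% of all genes.

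The genes with a pattern most like that of SLC6A9 were found by Pearson correlation of log2 CPM over the 8 libraries among 8922 genes with a mean log2 CPM of at least 3. They were PPP2R1B, CUTC, TCF19, CADPS2 and FASTKD2, with r of 0.990 to 0.994. The 8 libraries fall into 4 groups, so these values describe the order and spacing of 4 levels. Each of the 5 was lower with THZ1 in JJN3 and lay within 0.10 of 0 between the H929 labels. The JJN3 log2 fold changes were -0.50 for PPP2R1B, -1.18 for CUTC, -1.13 for TCF19, -0.86 for CADPS2 and -0.63 for FASTKD2. The genes were picked for likeness to SLC6A9 over these same libraries, so this pattern follows from the choice. None of the 5 was among the 5 with the highest Spearman correlation. Among the other transporters of the set, r with SLC6A9 was highest for SLC1A5 (0.798) and SLC1A4 (0.759) and lowest for SLC38A2 (-0.14).

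**Figure D5:**
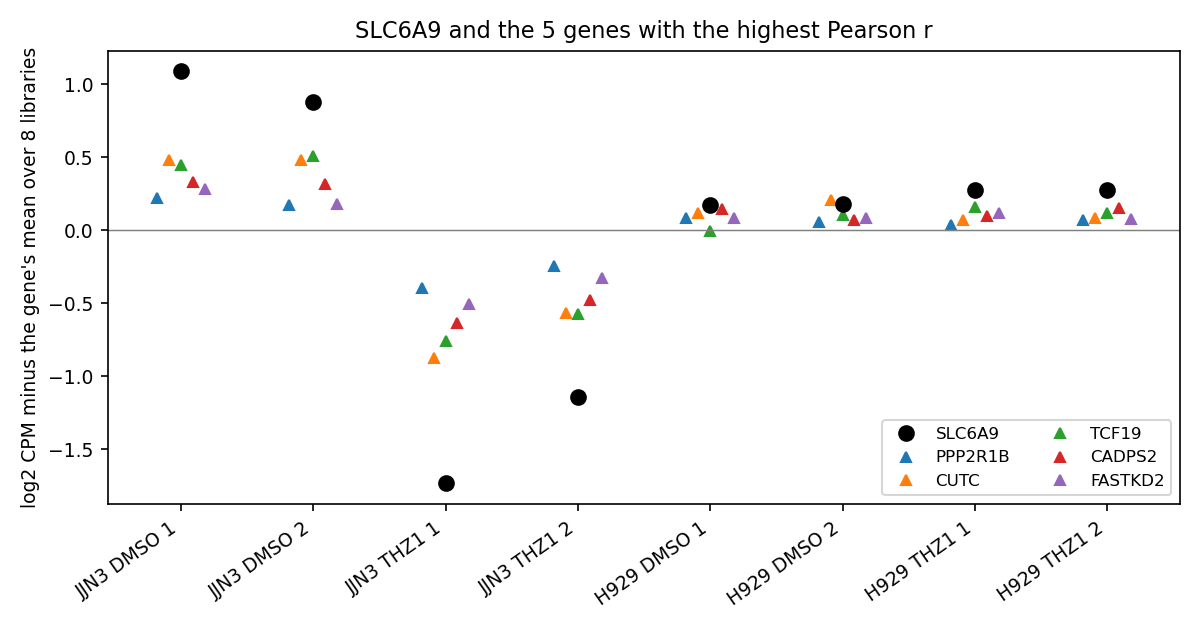
Log2 CPM minus the gene's own mean over the 8 libraries for SLC6A9 (black circles) and the 5 genes with the highest Pearson correlation with it (triangles). All 6 genes are highest in JJN3 DMSO and lowest in JJN3 THZ1, and SLC6A9 spans the widest range.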

How the data were processed

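RNA-seq of JJN3 and H929 was used as deposited. The authors aligned reads to hg19 with STAR 2.5.2a, kept reads mapping to 1 place, and deposited raw counts per Ensembl gene from featureCounts. The strand setting is not given in the sources used here. Their DESeq2 1.12.4 tables (means, fold changes and p-values) were used only for gene symbols. Groups came from the sample labels. Total counts per library were 17476443 to 19194371, and 0 count columns were left unmatched.

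Counts were compared with edgeR 4.0.16 in R 4.3.3 (TMM, filterByExpr, quasi-likelihood test, Benjamini-Hochberg adjustment over all genes tested), on simulated data first. Calls needed an adjusted p under 0.05 and a log2 fold change beyond 0.5. DESeq2 1.42.0, other scalings, filters and designs, and leaving out each library were alternatives. RPKM used exon lengths from GENCODE on GRCh37.

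Transporters and gene lists were chosen with earlier results of these data known. All 10 transporters are named. Of each list, up to 4 called genes per direction were eligible, largest change first, if their mean log2 CPM reached 3. In JJN3, genes named outside that rule were SLC7A11, ATP1B1, SLC16A3 and ATF3, called higher, and SLC1A3, PQLC2, CHAC1, DDIT3 and VLDLR, called lower. Between the H929 labels they were GLS2 and BCAT1, called lower. A list gene and an overlapping gene are not reported here.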

Additional observations from a re-analysis of the deposited data

Results flagged for a closer look

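A group of 5 transporters had JJN3 THZ1 libraries wholly on one side of JJN3 DMSO, and libraries labelled H929 THZ1 wholly on the other side of H929 DMSO. The share of all genes with such a pattern was not worked out, so nothing is read from this number. Between the H929 labels SLC6A9 and SLC1A5 were inside the limit of 0.5, and in JJN3 SLC36A4 and SLC38A2 were inside it. The values that follow are the log2 fold change in JJN3 minus that between the H929 labels, with 2 libraries in each group. SLC6A9 gave -2.49, from -2.38 in JJN3 and 0.11 between the H929 labels. SLC1A5 gave -1.42, from -1.29 and 0.13. SLC43A1 gave -1.10, from -0.54 and 0.55. SLC36A4 gave -6.39, from -0.27 and 6.12, where the H929 DMSO label had 0 and 12 counts. SLC38A2 gave 1.90, from 0.20 and -1.70. These differences were not tested, and for the libraries labelled H929 treatment and the other differences between the libraries cannot be told apart.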

How the results depend on the processing

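Of the log2 fold changes of the 10 transporters under the alternatives, 431 kept their direction and side of the threshold, 8 lost the call and 1 reversed. SLC38A1 in JJN3 ran from -0.099 to 0.025 with 1 library left out, and the positive value came without JJN3 THZ1 replicate 2. With a log2 limit of 1, 2 transporters in place of 6 were lower in JJN3 and 1 in place of 2 higher between the H929 labels. With the adjusted p alone, 5 in place of 3 were lower between the H929 labels, 7 in place of 4 lower in JJN3 DMSO than in H929 DMSO, and 3 in place of 1 higher in JJN3 THZ1 than in H929 THZ1. The shares of all genes were not worked out for a log2 limit of 1 or for the adjusted p alone. Nothing about the transporters is read from those counts. With 1 library left out, 1 to 2 were higher between the H929 labels (1 without H929 DMSO replicate 1 or H929 THZ1 replicate 1, where SLC43A1 was at 0.50 and 0.49), and 5 to 6 were lower in JJN3 and in JJN3 THZ1 against H929 THZ1. SLC6A9 in JJN3 ran from -2.72 to -2.13. SLC36A4 between the H929 labels was 5.11 without H929 DMSO replicate 1 and 11.78 without replicate 2, a fitted value against a library at 0 that depends on the prior count, and against JJN3 DMSO it was 5.36 and 12.05. SLC38A1 between the THZ1 libraries was -0.50 to -0.46 under 4 alternatives. The cause was not tested. With the longest transcript as length, 35 of the 40 mean levels per length moved beyond the spread between libraries, as the lengths differ.

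Replicate numbers were not taken as pairs: deviations of same-numbered libraries correlated at -0.014, -0.034, 0.037 and -0.038 in the 4 comparisons. With a replicate block the counts of transporters called were 6 lower and 0 higher in JJN3, 3 and 2 between the H929 labels, 4 and 3 between the DMSO libraries and 6 and 1 between the THZ1 libraries, as without it. Among the other lists, alternatives added after seeing the data gave 335 counts within 1.5 times and 17 beyond. In JJN3, other transporters higher were 1 in place of 2 with DESeq2, total counts, no filter, 1 fit of all 8 libraries, or without either JJN3 DMSO library. Membrane partners higher were 1 in place of 3 with DESeq2 or without JJN3 DMSO replicate 1. With total counts, nutrient sensing lower was 9 in place of 5, stress response higher 1 in place of 3, and glutamine use higher 1 in place of 2. Between the H929 labels, stress response lower was 3 in place of 5 and partners higher 2 in place of 1 with total counts, the last also without H929 THZ1 replicate 1. Uses of glycine and cysteine lower were 2 in place of 1 with 1 fit of all 8 libraries, or without H929 DMSO replicate 1 or H929 THZ1 replicate 2. Total counts moved the median of the 13984 genes tested in JJN3 to -0.10. DESeq2 gave a median of 0.17 over 27756 genes without the filter, where edgeR without the filter gave 0.13.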
